A study of Mus musculus with 22 samples.

Results

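The genes described here encode glutamate receptors of the mouse brain and the auxiliary subunits that travel with them. A fixed list named 33 of them by gene symbol. It holds the AMPA, NMDA, kainate and delta receptor subunits, the metabotropic receptors, and the TARP, Shisa, cornichon and Neto proteins. Of these, 32 carried a symbol among the measured features and were tested, out of 20239 named genes on the array. The NMDA subunit gene Grin1 was the 1 that did not. A feature under its gene number was measured but had no symbol in the platform annotation, so Grin1 was not analysed here. The listed genes were chosen by gene family, with earlier results of these data known. They are not whole families, since other measured receptor and auxiliary genes stand on a separate list given below.

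Affymetrix mouse gene ST arrays read the RNA of 2 brain regions from 11 females, 8 to 10 weeks old. Ts1Cje mice (n = 6), a model of Down syndrome, have the distal end of chromosome 16 in 3 copies, the added one being joined to chromosome 12, and their wild-type (WT) littermates (n = 5) do not. All of them came from Ts1Cje males bred back to C57Bl/6J females over several generations. Each animal gave 1 array of cortex and 1 array of hippocampus, 22 arrays in all, so the 4 groups were Ts1Cje hippocampus (6 arrays), WT hippocampus (5), Ts1Cje cortex (6) and WT cortex (5). RNA of whole dissected tissue was extracted with a different kit for each region, so region and extraction cannot be told apart. The triplicated segment runs from the gene after Sod1 to Zbtb21. No listed gene lies in it: Grik1, Grin2a and Shisa9 are on chromosome 16, and all of them lie on the centromere side of Sod1.

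Glutamate is the main excitatory transmitter of cortex and hippocampus. AMPA receptors are ion channels that carry most of the fast current, NMDA receptors admit calcium when glutamate arrives while the cell is depolarised, and kainate receptors act on both sides of the synapse. Metabotropic receptors signal through G proteins and are slower. Auxiliary subunits bind the channels, bring them to the surface and set how long they stay open, and both the receptor subunits and the auxiliary subunits are known to be used unequally by the cell types of the forebrain. In bulk tissue, fewer cells of a type and less RNA per cell cannot be told apart.

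Values are log2 signals from probes, so 1 unit is a doubling, and they are compared between animals or regions for 1 gene at a time, never between genes. A gene was called when its adjusted p, from limma with Benjamini-Hochberg adjustment over all 20239 genes, was under 0.05. Ts1Cje animal 64 and WT animal 60 gave arrays that stood apart in both regions. Their values spread less (SD over features 1.86 to 1.95 in cortex, against 2.17 to 2.22 on the other arrays), and they correlated less with the other arrays of their region (median r of 0.967 and 0.976 in cortex, against 0.996 to 0.997). In hippocampus the corresponding r was 0.985 and 0.991, against 0.995 to 0.996. The tissue labels held: 13 of 16 hippocampal neuron markers were higher and 0 lower in hippocampus than in cortex, and 10 of 14 cortical neuron markers were lower and 3 higher.

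The first comparison asked whether the extra segment goes with a change in these genes in either region. No member passed the threshold in cortex (0 of 32, where 0.00494% of all genes were called), in hippocampus (0 of 32, background 0.114%), or over the mean of both regions (0 of 32, background 0.0593%). By the unadjusted p of limma under 0.05 there was 1 member in cortex (background 1.3%), 1 in hippocampus (background 3.71%) and 1 over the mean of both regions (background 1.7%). It was Grin2c each time, lower in Ts1Cje mice. The median member differed by -0.0083 in cortex, beside -0.0034 for all genes, and by -0.027 in hippocampus, beside -0.0064 for all genes. Of the 32 members, 14 lay above 0 in cortex and 11 in hippocampus.

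Confidence intervals bound how large a difference in array signal could have been missed for 1 gene at a time. They were not adjusted for the 32 members, and RNA amounts were not measured by another method. Every member's 95% confidence interval lay inside plus or minus 0.585, the log2 of a 1.5-fold change, in cortex, in hippocampus and over the mean of both regions. Inside the narrower limits of plus or minus 0.3 lay 22 of the 32 intervals in cortex, 30 in hippocampus and 31 over the mean of both regions. The widest reach in cortex was that of Cacng5, whose interval extended to -0.43, and of Neto2, whose interval extended to 0.38. In hippocampus the farthest bounds were -0.35 for Shisa6 and 0.39 for Neto1.

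**Figure D1:**
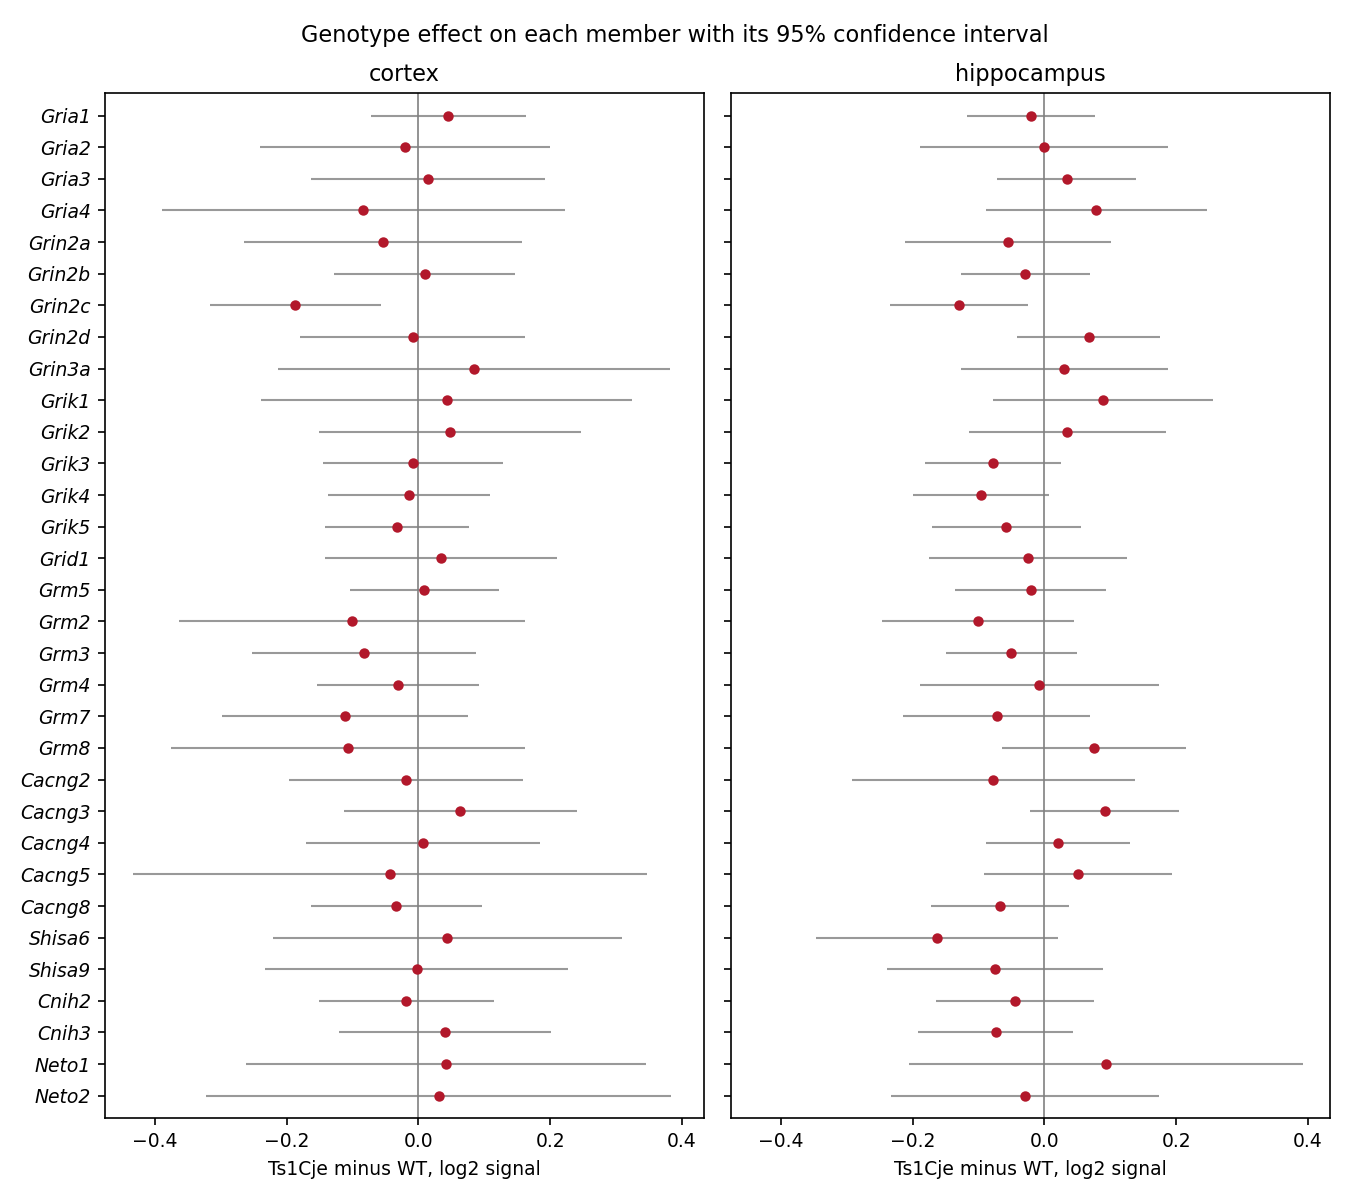
Genotype effect on the 32 members in cortex (left) and hippocampus (right). The x axis gives Ts1Cje minus WT in log2 signal (6 Ts1Cje and 5 WT animals), points are limma estimates and lines their 95% confidence intervals; the intervals of Grin2c are the only ones that lie wholly below 0 in either region, and none lies wholly above.

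Grin2c encodes an NMDA receptor subunit best known from cerebellar granule cells and, in the forebrain, from astrocytes and some thalamic neurons. In cortex its signal was 8.17 at the lowest, 8.33 at the median and 8.39 at the highest in Ts1Cje mice, against 8.55, 8.41, 8.49, 8.51 and 8.55 in WT animals 60, 62, 65, 95 and 98. All 6 Ts1Cje mice thus lay below all 5 WT mice, a separation that 1 of the 32 members and 0.306% of all genes showed. The difference was -0.19 ± 0.0592 (SE, unadjusted p = 0.00867, adjusted p = 1 by limma), which ranked 66 among all genes by p.

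In hippocampus Grin2c measured 7.35 at the lowest, 7.42 at the median and 7.53 at the highest in Ts1Cje mice, against 7.51, 7.61, 7.62, 7.52 and 7.55 in the same WT animals. The groups overlapped through Ts1Cje animal 64, the highest of its group. Separation of the groups in hippocampus was seen for 0 of the 32 members and for 0.637% of all genes. The difference was -0.13 ± 0.0481 (SE, unadjusted p = 0.02, adjusted p = 1).

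The mean of both regions, taken per animal, was 7.83 to 7.93 for Grin2c in Ts1Cje mice and 8.01 to 8.06 in WT mice. The groups did not overlap, as for 1 of the 32 members and 0.534% of all genes, and the difference was -0.16 ± 0.0373 (adjusted p = 0.575, rank 45 by p). It passed the threshold under 2 of the other settings, with array weights (-0.17, adjusted p = 0.01) and without animals 60 and 64 (-0.17, adjusted p = 0.0418). Without those animals the difference was -0.18 in cortex (adjusted p = 0.68) and -0.16 in hippocampus (adjusted p = 0.395).

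Astrocyte markers were set beside Grin2c. None of the 12 was called between genotypes by limma, and their median difference was -0.01 in cortex (0 of 12 at an unadjusted p under 0.05) and -0.07 in hippocampus (1 of 12). In hippocampus 10 of the 12 were below 0, and the mean of the list ran over 9.67 to 9.83 in Ts1Cje mice and 9.79 to 9.82 in WT mice. In cortex it ran over 10.11 to 10.36 in Ts1Cje mice and 10.12 to 10.35 in WT mice. Thalamic neuron markers had a median difference of 0.12 in cortex and -0.05 in hippocampus, with 0 of 10 called and 0 at an unadjusted p under 0.05 in either region. The part of either cell type in the Grin2c values was not tested.

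**Figure D2:**
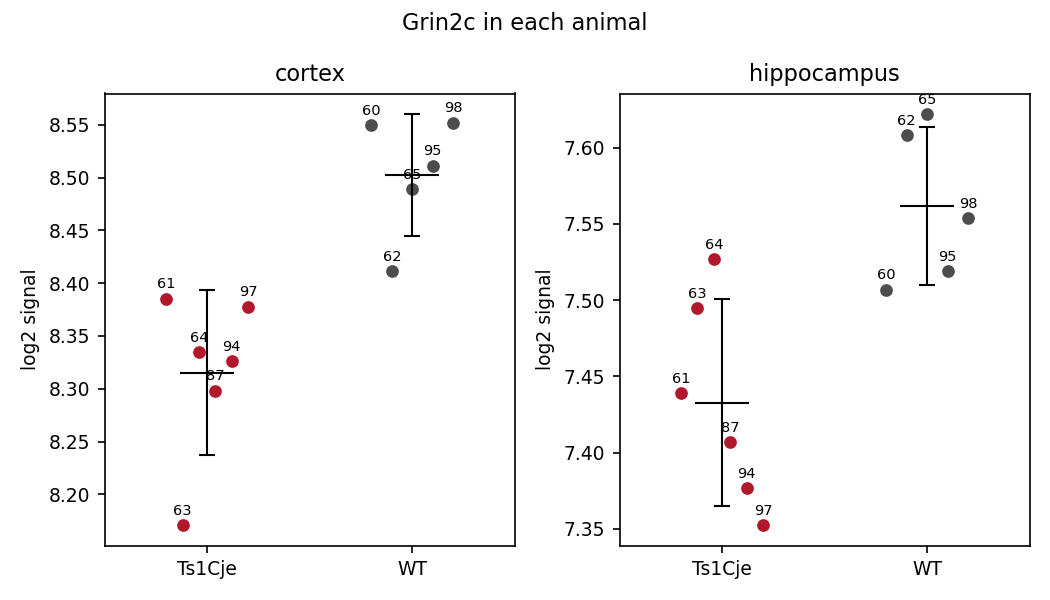
Grin2c log2 signal of each animal in cortex (left) and hippocampus (right), with Ts1Cje animals in red and WT animals in grey; numbers are animal numbers, horizontal bars the group mean and error bars the SD (n = 6 Ts1Cje and 5 WT). In cortex every Ts1Cje animal lies below every WT animal, and in hippocampus Ts1Cje animal 64 reaches 7.53, above WT animals 60 and 95.

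Promoter windows of Grin2c and of 3 members that differed between the regions are printed here so that the sequence around a transcript start can be read beside the values. The windows cover 250 bases before to 50 after a start in RefSeq's GRCm38.p6 annotation, which held such a window for 19 of the 32 members (24 windows in all). For Cnih2 that start is the outer end of the annotated gene. For Grik4, Grik3 and Grin2c it lies 629, 437 and 54 bases inside the gene, so these windows are not those of the outermost start. Capitals mark the GC box GGGCGG or its reverse complement CCGCCC. The windows are chr9:42944322-42944621 (minus strand) for Grik4, chr19:5098472-5098771 (minus strand) for Cnih2, chr4:125490446-125490745 (plus strand) for Grik3 and chr11:115267194-115267493 (minus strand) for Grin2c.
Grik4: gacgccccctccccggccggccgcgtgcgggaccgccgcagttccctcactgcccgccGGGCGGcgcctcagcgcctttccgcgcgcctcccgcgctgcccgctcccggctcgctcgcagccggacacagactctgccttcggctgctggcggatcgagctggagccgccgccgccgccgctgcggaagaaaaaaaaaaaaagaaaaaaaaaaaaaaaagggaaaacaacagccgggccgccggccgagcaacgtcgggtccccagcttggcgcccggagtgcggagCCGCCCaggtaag
Cnih2: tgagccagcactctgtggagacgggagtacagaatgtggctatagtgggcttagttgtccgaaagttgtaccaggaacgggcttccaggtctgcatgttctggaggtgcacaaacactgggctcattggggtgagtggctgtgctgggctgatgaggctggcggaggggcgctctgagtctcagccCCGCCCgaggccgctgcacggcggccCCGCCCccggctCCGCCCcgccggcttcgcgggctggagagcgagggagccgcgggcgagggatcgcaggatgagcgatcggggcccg
Grik3: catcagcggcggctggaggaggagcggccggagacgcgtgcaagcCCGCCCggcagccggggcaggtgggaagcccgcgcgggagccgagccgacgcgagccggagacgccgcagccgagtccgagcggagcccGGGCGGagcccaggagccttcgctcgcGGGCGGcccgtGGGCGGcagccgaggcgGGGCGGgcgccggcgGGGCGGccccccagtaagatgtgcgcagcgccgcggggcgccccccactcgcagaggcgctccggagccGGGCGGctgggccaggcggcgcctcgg
Grin2c: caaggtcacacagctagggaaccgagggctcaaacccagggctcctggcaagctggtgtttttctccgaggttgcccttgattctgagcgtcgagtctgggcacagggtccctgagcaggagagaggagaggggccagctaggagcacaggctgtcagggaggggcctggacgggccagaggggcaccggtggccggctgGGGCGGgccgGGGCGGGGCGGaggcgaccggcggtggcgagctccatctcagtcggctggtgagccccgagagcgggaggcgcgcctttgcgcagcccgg
The Grik3 window held 7 GC boxes and 50 CpG pairs, the Grik4 window 2 and 42, the Cnih2 window 3 and 25, and the Grin2c window 3 and 22, of which 2 GC boxes overlap. The members' 24 windows had a median of 17 CpG pairs, beside 7 in all 32851 windows of the annotation. A GC box on either strand was in 13 of the 24 and in 35.7% of all windows. TATAAA, the core of the TATA box, was on neither strand of the 24 windows and in 13.6% of all windows, and the E-box CACGTG was in the window of Cnih3 alone and in 7.15% of all windows. Genes on either side of the region difference held GC boxes, and a match describes the letters of the window and shows no bound factor.

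The other members with the lowest p between genotypes are given by role. Among the metabotropic receptors, Grm7, a presynaptic receptor that restrains release, measured 9.87, 10.13 and 10.29 (lowest, median and highest) in Ts1Cje cortex, against 10.04, 10.35, 10.28, 10.21 and 10.27 in the cortex of WT animals 60, 62, 65, 95 and 98. The groups overlapped widely, at a difference of -0.11 ± 0.0852 (adjusted p = 1), or -0.158 to -0.0628 when single animals were left out. Grm3, which neurons and astrocytes use, measured 11.48, 11.76 and 11.81 in Ts1Cje cortex, against 11.63, 11.91, 11.90, 11.80 and 11.76 in WT cortex, and its difference was -0.08 ± 0.0777, or -0.124 to -0.0359 when single animals were left out. For both genes the value nearest 0 was the one without Ts1Cje animal 64.

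Grm8, another presynaptic receptor, had 1 low value: 8.14 in the cortex of Ts1Cje animal 64, where the other 5 Ts1Cje mice measured 8.64 to 8.88 and the WT mice 8.65, 8.89, 8.73, 8.72 and 8.85. Its difference in cortex was -0.11 ± 0.1228, and it moved to as little as -0.0028 when single animals were left out. In hippocampus Grm8 ran the other way, at 0.08 ± 0.0641. The change of its genotype effect from cortex to hippocampus was 0.18 ± 0.1403 (unadjusted p = 0.208, adjusted p = 1).

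In hippocampus the 4 lowest p belonged to Grin2c, Grik4, Shisa6 and Cacng3. Grik4, a kainate subunit that needs a partner subunit to form a channel, measured 9.52, 9.55 and 9.64 (lowest, median and highest) in Ts1Cje hippocampus, against 9.61, 9.61, 9.68, 9.78 and 9.62 in WT animals 60, 62, 65, 95 and 98. Only Ts1Cje animals 63 and 94 reached the WT range, and the difference was -0.1 ± 0.0474 (unadjusted p = 0.0665, adjusted p = 1). Shisa6, an AMPA receptor partner that slows desensitisation, measured 10.13, 10.45 and 10.48 in Ts1Cje hippocampus, against 10.33, 10.49, 10.65, 10.59 and 10.58 in WT. The 2 lowest Shisa6 values were those of Ts1Cje animals 97 and 64, and the difference was -0.16 ± 0.0845 (unadjusted p = 0.078, adjusted p = 1). Of the hippocampal neuron markers 5 of 16 lay above 0 in Ts1Cje hippocampus (median -0.07) and 8 in Ts1Cje cortex (median 0.01). Limma called 0 of them, and 2 in hippocampus and 1 in cortex were at an unadjusted p under 0.05. The part of hippocampal neurons in the Grik4 and Shisa6 values was not tested.

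Cacng3, a TARP that escorts AMPA receptors to the surface, measured 10.03, 10.18 and 10.24 in Ts1Cje hippocampus, against 10.10, 10.03, 9.98, 10.17 and 10.08 in WT. The groups overlapped, and the difference was 0.09 ± 0.0519. Over the mean of both regions Cacng3 differed by 0.08 ± 0.0419 (adjusted p = 1), Grik4 by -0.05 ± 0.0391 and Cacng8 by -0.05 ± 0.0363.

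The differences not yet given follow, and none of them was called. The plot of genotype effects shows their intervals. The AMPA subunits differed in cortex by 0.05 for Gria1, -0.02 for Gria2, 0.01 for Gria3 and -0.08 for Gria4. In hippocampus those 4 differed by -0.02, -0.00083, 0.03 and 0.08. The NMDA subunits other than Grin2c differed in cortex by -0.05 for Grin2a, 0.0095 for Grin2b, -0.0086 for Grin2d and 0.08 for Grin3a, and in hippocampus by -0.05, -0.03, 0.07 and 0.03.

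Grik1 is the kainate subunit on chromosome 16 that lies nearest to the triplicated segment among the members. It measured 7.58, 8.08 and 8.23 (lowest, median and highest) in Ts1Cje cortex, against 7.66, 8.11, 8.11, 8.00 and 8.14 in the cortex of WT animals 60, 62, 65, 95 and 98. The groups overlapped in full, and the lowest value on each side came from the arrays that stood apart, of animals 64 and 60. The difference was 0.04 ± 0.1286 in cortex and 0.09 ± 0.0767 in hippocampus, with 95% confidence intervals of -0.24 to 0.32 and -0.08 to 0.26.

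Among the other kainate subunits, Grik2 differed by 0.05 in cortex and 0.03 in hippocampus, Grik3 by -0.008 and -0.08, and Grik5 by -0.03 and -0.06, and Grik4 differed by -0.01 in cortex. The delta subunit gene Grid1 differed by 0.03 in cortex and -0.02 in hippocampus. For the metabotropic receptors not yet given, Grm5 differed by 0.0089 and -0.02, Grm2 by -0.1 in both regions, and Grm4 by -0.03 and -0.0076. Grm3 and Grm7 differed by -0.05 and -0.07 in hippocampus.

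The TARP genes differed in cortex by -0.02 (Cacng2), 0.06 (Cacng3), 0.0069 (Cacng4), -0.04 (Cacng5) and -0.03 (Cacng8), and in hippocampus by -0.08 for Cacng2, 0.02 for Cacng4, 0.05 for Cacng5 and -0.07 for Cacng8. Shisa6 differed by 0.04 in cortex, and Shisa9 by -0.0029 in cortex and -0.08 in hippocampus. The cornichon genes differed by -0.02 for Cnih2 and 0.04 for Cnih3 in cortex, and by -0.04 and -0.07 in hippocampus. Neto1 and Neto2, partners of kainate receptors, differed in cortex by 0.04 and 0.03, and in hippocampus by 0.09 and -0.03.

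Whether the genotype effect itself differed between regions was tested as an interaction. By limma 0 of the 32 members and 0% of all genes passed the threshold, and at an unadjusted p under 0.05 there were 0 members and 1.28% of all genes. The lowest p was that of Shisa6, whose genotype effect in hippocampus minus that in cortex was -0.21 ± 0.1504 (unadjusted p = 0.183). The next were Cnih3 at -0.11 ± 0.0878, Grm8 at the value above, and Grik4 at -0.08 ± 0.0669. Grin2c, at 0.06 ± 0.0702, did not pass either.

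The 2 regions differed in most members. Arrays were centred on their medians for this comparison, since the array medians were 6.91 to 6.95 in hippocampus and 7.53 to 7.62 in cortex. Of the 32 members 9 were called higher in hippocampus (background 20.2% of all genes) and 14 lower (background 21.2%), which is 28.1% and 43.8% of the members. The sign was the same in all 11 animals for 8 members that were higher in hippocampus, where 12.7% of all genes were, and for 12 that were lower, where 13.1% were. Overlap between the regions is described below only for the members picked for the largest called differences. The share of all genes without such overlap was not counted. The median member differed by -0.1, beside -0.004 for all genes.

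**Figure D3:**
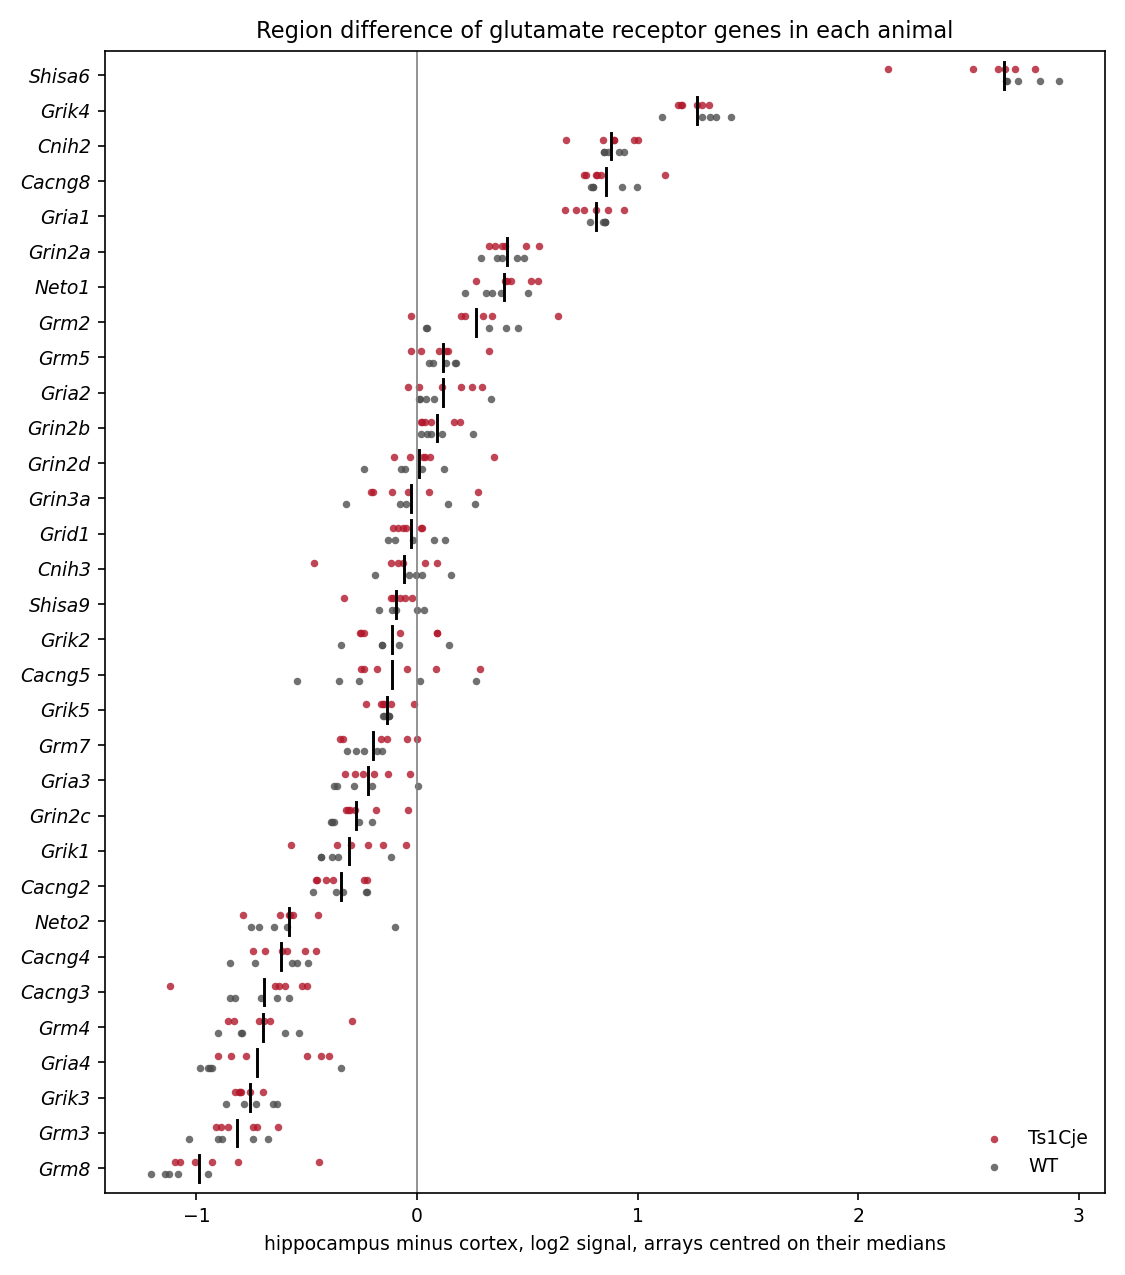
Hippocampus minus cortex in each of the 11 animals for the 32 members, in log2 signal with arrays centred on their medians; red points are Ts1Cje animals, grey points WT animals, and black bars the mean over the 11 animals. Shisa6 lies between 2.13 and 2.91 in every animal, Grik4 between 1.11 and 1.42, and Grm8 at the other end between -1.21 and -0.44.

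Among the auxiliary subunits, Shisa6 showed the largest difference of the 32 members. Shisa6 minus the array median was 3.22, 3.53 and 3.57 (lowest, median and highest) in Ts1Cje hippocampus, against 0.58, 0.88 and 1.09 in Ts1Cje cortex. WT animals 60, 62, 65, 95 and 98 measured 3.39, 3.55, 3.70, 3.65 and 3.65 for Shisa6 in hippocampus, against 0.48, 0.73, 0.98, 0.98 and 0.99 in cortex. The regions were far apart in each genotype, with no overlap. The difference was 2.67 ± 0.0759 (SE, adjusted p = 1.04e-16), and the mean over animals of 2.66 corresponds to 6.32-fold.

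Cacng8 is the TARP long associated with hippocampal AMPA receptors. Cacng8 minus the array median was 3.03, 3.08 and 3.21 in Ts1Cje hippocampus, against 2.08, 2.28 and 2.31 in Ts1Cje cortex. In WT animals, in the same order, Cacng8 was 3.19, 3.09, 3.13, 3.24 and 3.13 in hippocampus, against 2.19, 2.30, 2.33, 2.32 and 2.33 in cortex. No animal's hippocampus value reached down to a cortex value, and the difference was 0.86 ± 0.0364 (adjusted p = 3.89e-14).

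Cnih2 encodes a cornichon protein that slows AMPA receptor closing. Cnih2 minus the array median was 4.83, 5.04 and 5.10 in Ts1Cje hippocampus, against 4.04, 4.14 and 4.26 in Ts1Cje cortex. WT values of Cnih2 were 4.98, 4.98, 5.05, 5.16 and 5.05 in hippocampus, against 4.13, 4.11, 4.21, 4.24 and 4.11 in cortex. The regions did not overlap, at a difference of 0.88 ± 0.0394 (adjusted p = 9.48e-14). Its relative Cnih3 was not called (-0.06 ± 0.0435, adjusted p = 0.326).

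Of the other TARP genes, Cacng2, Cacng3 and Cacng4 ran against Cacng8. Cacng3 was lower in hippocampus by a log2 difference of -0.69 ± 0.0486, Cacng4 of -0.62 ± 0.0461 and Cacng2, which encodes stargazin, of -0.34 ± 0.0684, each in all 11 animals, while Cacng5 was not called (-0.12 ± 0.095). Shisa9 was not called either (-0.09 ± 0.0613, adjusted p = 0.237), but was with the animal as a fixed replicate block (adjusted p = 0.0458) and with array weights (adjusted p = 0.0396). With quantile normalization Shisa9 was not called, at -0.0695 (limma adjusted p = 0.539). Neto1, which also binds NMDA receptors, was higher in hippocampus (0.39 ± 0.1058) and Neto2 lower (-0.58 ± 0.1003), both in 11 of 11 animals.

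Of the AMPA subunits, Gria1, the subunit whose phosphorylation and delivery are studied in hippocampal plasticity, was higher in hippocampus. Gria1 minus the array median was 4.64, 4.72 and 4.84 in Ts1Cje hippocampus, against 3.90, 3.93 and 3.99 in Ts1Cje cortex. WT values of Gria1 were 4.69, 4.71, 4.73, 4.79 and 4.76 in hippocampus, against 3.83, 3.86, 3.95, 3.94 and 3.92 in cortex. The regions were separate in both genotypes, at a difference of 0.82 ± 0.0314 (adjusted p = 8.45e-15).

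Gria4, a subunit prominent in interneurons, was lower in hippocampus. Gria4 minus the array median was 2.13, 2.19 and 2.50 in Ts1Cje hippocampus, against 2.57, 2.90 and 3.10 in Ts1Cje cortex. WT values of Gria4 were 2.11, 2.33, 2.07, 2.00 and 2.20 in hippocampus, against 2.45, 3.31, 3.01, 2.93 and 3.15 in cortex. The regions were separate within each genotype, the smallest gap lying in animal 60 (-0.34), and the difference was -0.74 ± 0.0855 (adjusted p = 4.06e-07). It was -0.82 without animals 60 and 64.

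Gria3 was also lower in hippocampus (-0.22 ± 0.051, in 10 of 11 animals). Gria2, the subunit that keeps AMPA receptors impermeable to calcium, was not called (0.12 ± 0.0716, adjusted p = 0.208). It was called with the animal as a fixed replicate block (adjusted p = 0.0386), with array weights (adjusted p = 0.0116) and, at 0.1, without animals 60 and 64 (adjusted p = 0.00857). With quantile normalization Gria2 was not called, at 0.0106 (limma adjusted p = 0.882). Interneuron markers differed between the regions as well, with 3 of 15 called higher and 10 lower in hippocampus, and their part in these values was not tested.

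The tested NMDA subunits differed less. Grin2a was higher in hippocampus (0.41 ± 0.0642) and Grin2c lower (-0.28 ± 0.0336), both in 11 of 11 animals. Grin2b, the other main partner subunit of the forebrain, lay above 0 in 11 of 11 animals and was not called (0.09 ± 0.0399, adjusted p = 0.0724). In a fit that took the animal as a random replicate block it was called, and so it was without animals 60 and 64 (0.08, adjusted p = 0.0194). With quantile normalization Grin2b was not called, at 0.0166 (limma adjusted p = 0.652). Grin2d (0.0057) and Grin3a (-0.02) were not called.

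The kainate subunits went both ways. Grik4 minus the array median was 2.60, 2.62 and 2.72 (lowest, median and highest) in Ts1Cje hippocampus, against 1.33, 1.41 and 1.46 in Ts1Cje cortex. WT animals 60, 62, 65, 95 and 98 measured 2.66, 2.68, 2.73, 2.84 and 2.69 for Grik4 in hippocampus, against 1.33, 1.57, 1.38, 1.42 and 1.4 in cortex. The regions did not overlap in either genotype, and the difference was 1.27 ± 0.0351 (adjusted p = 7.79e-17), or 2.41-fold by the mean over animals.

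Grik3, a subunit of presynaptic and postsynaptic kainate receptors, went the other way. Grik3 minus the array median was 1.88, 1.96 and 2.00 in Ts1Cje hippocampus, against 2.60, 2.76 and 2.80 in Ts1Cje cortex. WT values of Grik3 were 1.93, 2.14, 1.98, 1.98 and 2.04 in hippocampus, against 2.59, 2.77, 2.76, 2.84 and 2.77 in cortex. Every hippocampus value lay below every cortex value, at a difference of -0.76 ± 0.0383 (adjusted p = 7.03e-13).

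Grik1 (-0.31 ± 0.0789) and Grik5 (-0.14 ± 0.0341), the usual partner of other kainate subunits, were lower in hippocampus in 11 of 11 animals. Grik2, a main channel-forming subunit, was not called (-0.11 ± 0.0618, adjusted p = 0.151), and without animals 60 and 64 it was (-0.13, adjusted p = 0.00536). With quantile normalization Grik2 was not called, at -0.0851 (limma adjusted p = 0.0945). Grid1, a delta subunit that binds cerebellins across the synapse, did not pass (-0.03 ± 0.0557).

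Grm4, Grm7 and Grm8, metabotropic receptors of group III, were all lower in hippocampus. Grm8 minus the array median was 0.12, 0.16 and 0.40 in Ts1Cje hippocampus, against 0.58, 1.19 and 1.33 in Ts1Cje cortex. WT values of Grm8 were 0.10, 0.22, -0.03, 0.06 and 0.22 in hippocampus, against 1.05, 1.36, 1.18, 1.18 and 1.3 in cortex. The regions were separate, the low cortex value being that of Ts1Cje animal 64, and the difference was -0.997 ± 0.0716 (adjusted p = 2.28e-10).

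Grm4 minus the array median was 0.44, 0.60 and 0.85 in Ts1Cje hippocampus, against 1.14, 1.3 and 1.33 in Ts1Cje cortex. WT values of Grm4 were 0.74, 0.71, 0.55, 0.48 and 0.47 in hippocampus, against 1.28, 1.31, 1.34, 1.38 and 1.27 in cortex. No values overlapped between the regions, and the difference was -0.70 ± 0.048 (adjusted p = 1.03e-10). Grm7 was lower by a log2 difference of -0.20 ± 0.057, in 10 of 11 animals.

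The related pair Grm2 and Grm3, which lower cyclic AMP, went opposite ways. Grm3 minus the array median was 3.29, 3.38 and 3.40 in Ts1Cje hippocampus, against 3.92, 4.19 and 4.27 in Ts1Cje cortex. WT values of Grm3 were 3.36, 3.47, 3.31, 3.37 and 3.46 in hippocampus, against 4.03, 4.38, 4.34, 4.26 and 4.20 in cortex. All hippocampus values were below all cortex values, at a difference of -0.82 ± 0.0469 (adjusted p = 5.24e-12). Grm2 was higher in hippocampus (0.27 ± 0.0676, in 10 of 11 animals), and so was Grm5, which signals through calcium stores (0.12 ± 0.0377, in 10 of 11 animals).

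**Figure D4:**
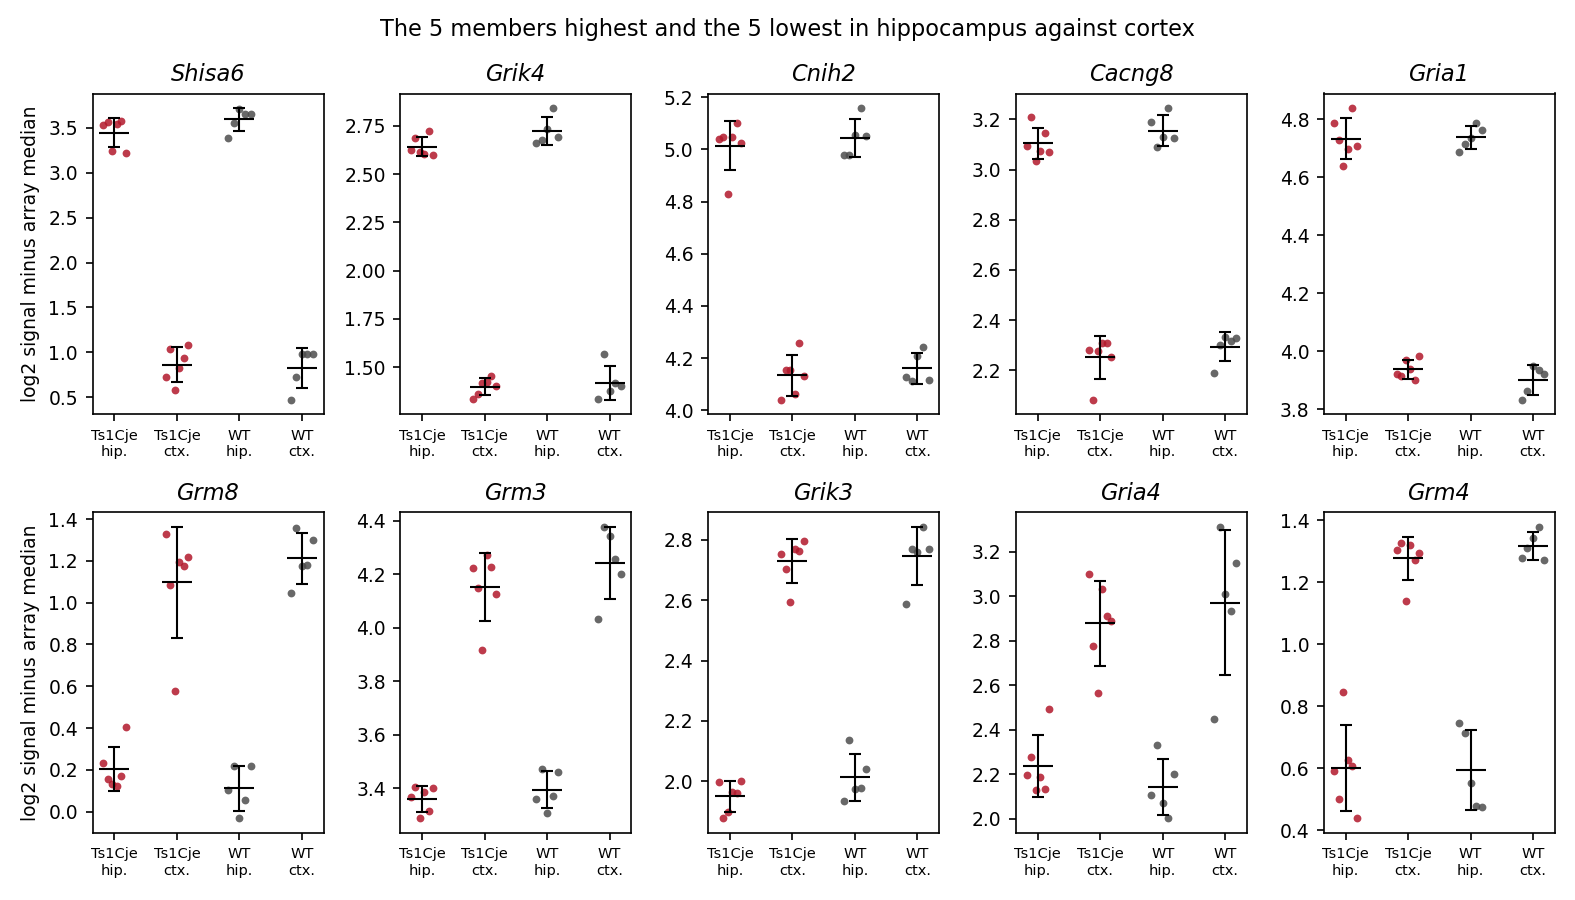
Log2 signal minus the array median of the 5 members highest (top) and the 5 lowest (bottom) in hippocampus against cortex, in Ts1Cje hippocampus, Ts1Cje cortex, WT hippocampus and WT cortex; points are animals (6 Ts1Cje in red, 5 WT in grey), bars the mean and SD, and each panel has its own scale. Within each genotype no hippocampus point of these 10 genes reaches the cortex points. The genes were picked for their large differences, and the share of all genes separated this way was not counted.

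The region differences of these 10 genes were also fitted within each genotype. In Ts1Cje mice and in WT mice they were 2.58 and 2.76 for Shisa6, 1.24 and 1.3 for Grik4, 0.85 and 0.86 for Cacng8, and 0.88 in both for Cnih2. For Gria1 they were 0.79 in Ts1Cje mice and 0.84 in WT mice. On the lower side they were -0.64 and -0.83 for Gria4, -0.78 and -0.73 for Grik3, -0.79 and -0.85 for Grm3, -0.68 and -0.72 for Grm4, and -0.89 and -1.10 for Grm8. The test of the difference between genotypes is the interaction given above, in which none of these genes passed.

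The scale on which regions are compared bears on these directions. On the values as deposited the median gene differed by -0.63 between the regions, and 299 of the 19285 called genes were higher there. On that scale 5 members were called higher and 27 lower, so that Grin2a (-0.22), Neto1 (-0.24), Grm2 (-0.36) and Grm5 (-0.51) turned to lower in hippocampus. With quantile normalization of all arrays 8 members were called higher and 14 lower, and Grm5 was not called (0.05, adjusted p = 0.186). Of all 20239 genes 9681 were called after quantile normalization, 4921 of them higher. Shisa6, Grik4, Cnih2, Cacng8 and Gria1 were called higher under all 3 scalings, and the 14 members called lower were lower under all 3. The share of called members that were higher was thus 9 of 23 after centring, 5 of 32 as deposited and 8 of 22 after quantile normalization.

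**Figure D5:**
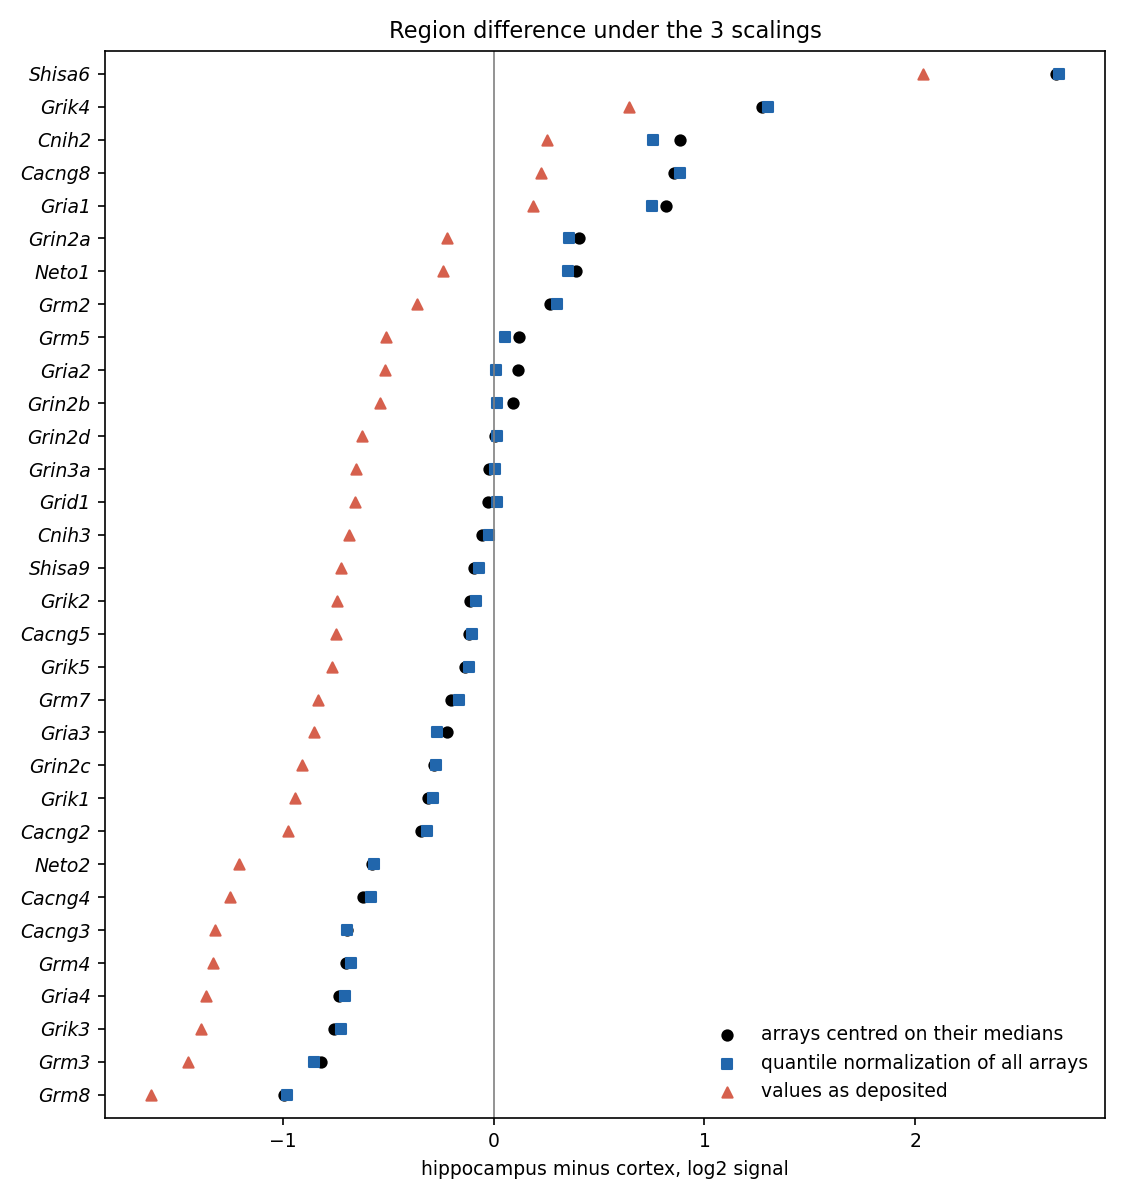
Region difference of each member under the 3 scalings, in log2 signal (hippocampus minus cortex, 22 arrays); black circles are arrays centred on their medians, blue squares quantile normalization and red triangles the values as deposited. Against centring, the deposited values shift every member by -0.63, and 5 members remain above 0 on all 3 scales.

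Markers of neighbouring tissue differed between the dissected regions and are given beside these results. All 11 measured striatal neuron markers were lower in hippocampus, with a median difference of -1.70. Their mean, minus the array median, ran over 0.41 to 0.75 in Ts1Cje hippocampus and 2.25 to 2.56 in Ts1Cje cortex, and over 0.39 to 0.53 in WT hippocampus and 1.86 to 2.55 in WT cortex. All 10 measured choroid plexus markers were higher in hippocampus, with a median difference of 2.01. In each Ts1Cje array their mean ran over 1.09 to 1.93 in hippocampus and -1.3 to 0.1 in cortex, and in each WT array over 1.26 to 1.81 and -1.15 to 0.08.

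Astrocyte markers were split, with 5 of 12 called higher and 2 lower in hippocampus, led by Gfap at 1.32. Oligodendrocyte markers had 6 of 13 called higher and 0 lower, microglia markers 0 of 11 higher and 2 lower, and thalamic neuron markers 3 of 10 higher and 4 lower. On the values as deposited 1 of 12 astrocyte, 0 of 13 oligodendrocyte, 0 of 11 microglia and 1 of 10 thalamic markers lay above 0, beside 10 of 10 choroid plexus and 11 of 16 hippocampal neuron markers. The part of any of these cell types in the members' region differences was not tested. Between genotypes all 11 striatal markers lay above 0 in Ts1Cje cortex (median 0.16), where limma called 0 of 11 and 1 was at an unadjusted p under 0.05. Of the interneuron markers 12 of 15 lay above 0 in Ts1Cje mice in either region, with a median of 0.04 in hippocampus and 0.1 in cortex. Limma called 0 of them, and 4 in hippocampus and 0 in cortex were at an unadjusted p under 0.05. Their part in the members' genotype values was not tested.

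Other genes of glutamate signalling were taken from lists of related genes. Between genotypes limma called 0 of the 13 other receptor and auxiliary genes, 0 of 19 postsynaptic scaffolds, 0 of 16 kinases and phosphatases downstream of the receptors, 0 of 14 transporters and enzymes of glutamate, and 0 of 19 extracellular synapse organisers, in either region. At an unadjusted p under 0.05 stood 1 transporter gene in cortex and 1 in hippocampus. They were Slc1a6, a glutamate transporter best known from Purkinje cells, at -0.19 ± 0.0848 in cortex (unadjusted p = 0.0495), and Slc17a8, a vesicular glutamate transporter, at 0.11 ± 0.0507 in hippocampus (unadjusted p = 0.0449). Gsg1l came next in cortex (-0.12 ± 0.0744) and Slc38a2 in hippocampus (-0.14 ± 0.0658). Over the mean of both regions the lowest p belonged to Pick1 (-0.08 ± 0.0432) and Slc17a6 (0.1 ± 0.0744), and by limma 0 genes of these lists were called and 0 were at an unadjusted p under 0.05.

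Between regions, on arrays centred on their medians, these lists held genes called either way. Of the other receptor and auxiliary genes 5 of 13 were called higher in hippocampus and 5 lower, from Prrt1, an AMPA receptor partner (0.45 ± 0.0845), to Gsg1l, another one (-0.61 ± 0.0557). Of the scaffolds 4 of 19 were higher and 8 lower, with the 2 extremes in 1 family of proteins that tie metabotropic receptors to their effectors: Homer3 at 1.37 ± 0.0814 and Homer1 at -0.94 ± 0.0913. Of the kinases and phosphatases 7 of 16 were higher, led by Ptk2b (0.68 ± 0.037), and 6 lower, led by Ppp1r1b (-1.70 ± 0.0871), which is also on the list of striatal markers.

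Of the transporters and enzymes of glutamate 7 of 14 were called higher and 1 lower in hippocampus. Slc1a1, the neuronal glutamate transporter, was the highest (0.39 ± 0.0353), and Slc17a6, a vesicular transporter also on the list of thalamic markers, was the lower one (-0.25 ± 0.0918). Of the synapse organisers 6 of 19 were higher and 8 lower. Their ends were C1ql2, a secreted ligand of kainate receptors at mossy fibre synapses and also on the list of hippocampal markers (2.05 ± 0.1143), and Cbln2, a cerebellin that binds delta receptors (-1.80 ± 0.1184). On the values as deposited the higher side largely turned: 0 of the 14 transporters and enzymes lay above 0, 0 of the 13 other receptor and auxiliary genes, 1 of 19 scaffolds, 1 of 16 kinases and phosphatases, and 2 of 19 synapse organisers. Prrt1 was then -0.18 and Slc1a1 -0.24, while Homer3 (0.74), Ptk2b (0.05) and C1ql2 (1.42) stayed above 0.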

How the data were processed

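The members and gene lists were chosen with earlier results of these data known. RMA made the values, per the submitters' processing notes, and the deposited values are log2 signals, 1 for each of 21225 features per array. Not given in the sources used here were the RMA version, probe definition and genome build. Features were named through GEO's platform annotation: 20239 had 1 symbol, all in RefSeq's GRCm38.p6 gene table, 0 had several, and 986 had none and were left out. For 2 arrays title and description disagree on the number of a WT animal (60 and 61), and the title was followed. The number 61 is also that of a Ts1Cje animal, and animal 60 is among those whose arrays stood apart.

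Fits were made in R 4.3.3 with limma 3.58.1 (linear models with empirical Bayes variances, two-sided, Benjamini-Hochberg over all named genes, no filter on dim genes), tested on simulated data. Genotype was compared within each region, and over each animal's mean, on the deposited values. The difference between regions used all 22 arrays in 4 groups, centred on their medians, and the interaction used the deposited values. All 32 tested members are named. WT values by animal and the range of the Ts1Cje values are given for the 4 lowest p in cortex and in hippocampus. The same holds for the 5 highest and 5 lowest called between regions. Over the mean of both regions the 4 lowest p have a difference and SE, with group ranges for Grin2c alone. Of the lists, the 2 lowest p per genotype comparison and the extremes between regions are given. Nothing says that arrays were replicated within an animal, so p-values of the genotype comparisons measure the spread between animals. The region and interaction fits took the 22 arrays as separate and did not pair the 2 arrays of an animal. Their p-values measure the spread between arrays within the 4 groups, and pairing enters only in the fits with a replicate block. The number of arrays limits the precision.

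The labels tie both arrays of an animal by its number. Deviations from the group means correlated within an animal with a median r of 0.265 (range 0.0523 to 0.761), and for 2 of 11 animals the other array of that animal correlated best. The alternatives were centring, quantile normalization, a trended robust prior, array weights, dim genes left out, every feature tested, a covariate for the series of animal numbers, leaving out animals 60 and 64 or each animal in turn, and the animal as a replicate block.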

Additional observations from a re-analysis of the deposited data

Results flagged for a closer look

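A single array stood outside its group for some members, by a gap to its nearest neighbour that was large against the group's whole range (Dixon's test at 95%). Of 128 groups of values tested 27 held such an array. Chance flags about 1 in 20 groups where groups are independent, but these groups share the same 22 arrays. The share of flagged groups over all genes was not counted. Animals 60 and 64, whose arrays stood apart over all genes, made up 22 of the 27: 11 of the 12 values of animal 64 were low, and 9 of the 10 of animal 60. All values are log2 signals as deposited.

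Among Ts1Cje animals, animal 64 was low in cortex for 6 members: Grin2d was 7.49 (the others 7.75 to 7.83), Grik1 was 7.58 (the others 8.08 to 8.23), Grm3 was 11.48 (the others 11.71 to 11.81), Grm8 was 8.14 (the others 8.64 to 8.88), Cacng2 was 10.43 (the others 10.73 to 10.83) and Neto1 was 10.88 (the others 11.30 to 11.44). In hippocampus the same animal was low for 5 members and high for Shisa9: Grik2 was 9.51 (the others 9.75 to 9.89), Grid1 was 9.09 (the others 9.34 to 9.41), Shisa9 was 10.22 (the others 9.81 to 9.92), Cnih2 was 11.77 (the others 11.94 to 12.01), Neto1 was 10.53 (the others 11.09 to 11.24) and Neto2 was 9.34 (the others 9.79 to 9.88). Animal 63 stood out in cortex, high for Cacng3 and low for Cacng8: Cacng3 was 11.79 (the others 11.35 to 11.49) and Cacng8 was 9.64 (the others 9.84 to 9.87). Animal 97 was high in hippocampus for the presynaptic receptor Grm8 and the TARP Cacng5: Grm8 was 7.32 (the others 7.05 to 7.14) and Cacng5 was 7.6 (the others 7.24 to 7.33).

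Among WT animals, animal 60 was low in cortex for 6 members: Gria2 was 11.55 (the others 11.94 to 12.03), Gria3 was 11.39 (the others 11.68 to 11.80), Grin2b was 11.62 (the others 11.82 to 11.86), Grik2 was 10.13 (the others 10.49 to 10.63), Neto1 was 10.74 (the others 11.34 to 11.42) and Neto2 was 10.36 (the others 11.05 to 11.16). In its hippocampus 3 members were low and Shisa9 was high: Gria2 was 11.23 (the others 11.41 to 11.45), Shisa9 was 10.16 (the others 9.95 to 9.99), Neto1 was 10.59 (the others 11.03 to 11.10) and Neto2 was 9.61 (the others 9.80 to 9.86). Animal 62 was high in cortex for the kainate subunit Grik4: Grik4 was 9.10 (the others 8.93 to 8.96). Neto1, a kainate receptor partner, was low in both regions of both animals 60 and 64, and Neto2 in 3 of those 4 arrays.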

How the results depend on the processing

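No genotype call of a member depended on the scaling, and 11 animals cannot exclude differences inside the intervals given. Over the mean of both regions the count of called members was 1 instead of 0 with array weights and without animals 60 and 64, Grin2c each time; the cause was not tested. Leaving out each animal in turn gave 0 called members in every genotype comparison and in the interaction. Between regions the values as deposited gave 5 members called higher and 27 lower, since no array was then centred, and turned Gria2 (-0.51), Grin2a (-0.22), Grin2b (-0.54), Grin2d (-0.62), Grm2 (-0.36), Grm5 (-0.51) and Neto1 (-0.24). Grin2d also turned with array weights (-0.0385) and without animals 60 and 64 (-0.032), and Grin3a (0.0058) and Grid1 (0.0141) with quantile normalization. Leaving out each animal in turn gave 8 to 9 members called higher and 14 to 15 lower, beside 7378 to 9723 of all genes called either way. Grm5 was lost without animal 97, and Grik2 was called without animal 60. Leaving out single animals moved Grin2d over -0.0239 to 0.0301 and Grin3a over -0.0579 to 0.0151. In the fit with each animal as a random replicate block, which uses the paired arrays, 24 members were called (10 higher, 14 lower) and 10935 genes. With the animal as a fixed replicate block 26 members and 10925 genes were called. Among those members were Gria2, Grin2b and Shisa9, which had not passed, and the interaction stayed at 0 under both blocks.

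None of the other values that turned had passed the test. Grm8 over the mean of both regions was 0.0376 with array weights and 0.0256 without animals 60 and 64, and -0.0529 to 0.0411 when animals were left out in turn. In cortex the left-out range was -0.0258 to 0.0173 for Grik4, -0.0335 to 0.101 for Shisa6, -0.0485 to 0.0012 for Cacng8, -0.0079 to 0.0749 for Cnih3 and -0.0444 to 0.136 for Grik1. In the interaction Cacng8 was 0.0213 with quantile normalization and 0.0058 without animals 60 and 64, and the left-out range was -0.0112 to 0.067 for Grm3, -0.0018 to 0.117 for Cacng3 and -0.0039 to 0.105 for Grik1.

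Counts over all genes moved more. In cortex 1 gene was called, against 13 with quantile normalization, 3 with a trended robust prior or without the dimmest genes, 50 with array weights and 32 without animals 60 and 64. In hippocampus 23 were, against 54 with array weights and 37 without those animals. Over the mean of both regions 12 were, against 30, 20, 27, 68 and 52 with quantile normalization, the trended robust prior, the dimmest genes left out, array weights and those animals left out. Between regions 8379 were, against 19285 as deposited, 13685 with array weights and 13253 without those animals. Leaving out single animals gave 1 to 7 called genes in cortex, 1 to 35 in hippocampus and 1 to 33 over the mean of both regions.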
